A study of Mus musculus with 35 samples.

Results

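The strain ratio of gene expression in the pancreatic lymph node, NOD over NOD.B10, was compared between mice aged 16 weeks and mice aged 8 weeks. The members are the arrays whose titles name these ages, 10 of the 35 arrays of the series, with 4 arrays at 8 weeks and 6 at 16 weeks. Each 2-colour whole mouse genome array carried RNA of female NOD/LtJ (NOD) mice in the Cy3 channel and RNA of NOD.B10Sn-H2b/J (NOD.B10) mice in the Cy5 channel, and no treatment is named for either strain. The labels call the NOD node diabetic and the NOD.B10 node control. The control mice were not matched in age to each array: the series text names 1 group aged 10 days and 1 group aged 20 weeks, each of 10 mice, and the labels do not say which control RNA was put on which array. The dyes were never exchanged, and nothing states that arrays came from separate animals, so a p-value covers array-to-array spread that may be technical and leaves out the spread between control mice.

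The NOD mouse is an inbred strain in which T cells destroy the insulin-producing beta cells of the pancreas. The pancreatic lymph node drains that organ, and dendritic cells and B cells present islet proteins to T cells there. NOD.B10 carries a different major histocompatibility complex (MHC) haplotype on the NOD background and does not become diabetic. A ratio between 2 strains moves between ages when either channel moves, so each difference is given with the part that each channel carried.

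The ratio is given as the log2 of NOD signal over NOD.B10 signal, and a difference is the mean at 16 weeks minus the mean at 8 weeks with its standard error (SE) from limma. A gene was called at a Benjamini-Hochberg adjusted p under 0.05. A channel level is a log2 signal, and the NOD difference minus the NOD.B10 difference equals the ratio difference.

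The defining markers of the labelled tissue were present. Cd3e of T cells, Ms4a1 of B cells, and Ccl19, Cxcl13 and Glycam1 of node stroma and vessels exceeded background clearly in either strain's channel on each of the 10 arrays, while Ccl21a was not analysed here. Cd79a of B cells cleared background in the control channel on 3 of the 4 arrays at 8 weeks. Most markers of pancreas were present as well, and Cpa1 and Pnlip, digestive enzymes of acinar cells, were saturated in the control channel on all 10 arrays. Another such enzyme, Amy2a5, cleared background on 0 of the 6 arrays at 16 weeks in either channel. In NOD at 16 weeks the islet hormone genes Ins1 and Gcg cleared it on 5 and 4 arrays of 6. The share of spots well above background ran from 74.4% to 87.8% (NOD) and from 43.6% to 73.5% (NOD.B10) at 8 weeks, and from 42.1% to 82.9% and from 38.0% to 79.3% at 16 weeks. Precision is limited by how few arrays each age has.

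The arrays of the 2 ages were never scanned on the same day. Replicates 1, 3 and 4 at 8 weeks shared a scan day and Feature Extraction version 8.1.1.1, replicate 2 at 8 weeks had a day of its own with version 8.5.1.1, and all 6 arrays at 16 weeks had another day with version 8.5.1.1. The only scanner shared by both ages read replicates 1, 3 and 4 at 8 weeks and replicates 1 and 2 at 16 weeks. Within it, scan day and version still differed between the ages. Replicate 2 at 8 weeks stood apart from its group. Its log2 ratios, not centred by gene, correlated with the other 8-week arrays at r = -0.01 to 0.25 and with the 16-week arrays at 0.23 to 0.47. Among the other 3 arrays at 8 weeks r was 0.39 to 0.53. Replicate 2 at 16 weeks held 1392 outlier spots, against 19 to 81 on the other 16-week arrays. Counts and values without replicate 2 at 8 weeks stand beside the lists and genes that its removal moved most, and age and scan day cannot be told apart.

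Of 28438 genes tested, 3482 (12.2%) changed between the ages, 1569 (5.52%) towards a higher ratio at 16 weeks and 1913 (6.73%) towards a lower one. At a difference of at least 1 on the log2 scale, which is 2-fold, 1281 genes (4.5%) were called, 479 of them higher and 802 lower. The values of both ages did not overlap for 4231 genes (14.9%), called or not. Both channels moved more often than their ratio did: the NOD signal changed for 9117 genes (32.1%) and the control signal for 11172 (39.3%). Within the shared scanner 726 genes rose in ratio and 677 fell. With scan day as a random block these counts were 920 and 1100, and with the extraction version as a block 425 and 493. Comparing only arrays read with version 8.5.1.1, which leaves replicate 2 alone at 8 weeks and assumes that it varies like the other groups, 264 genes were called, and with the version as a block 918 were called.

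The NOD signal carried more genes than the control signal among the rises and among the falls, and the control part was larger among the falls than among the rises. Among the 479 genes with a ratio at least 2-fold higher at 16 weeks, the NOD channel changed and carried at least 0.75 of the difference for 313 genes, and the NOD.B10 channel did so for 38. Among the 802 lower genes these counts were 338 and 209. The median part of the difference carried by the control channel was -0.01 for the higher genes and 0.35 for the lower ones.

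**Figure D1:**
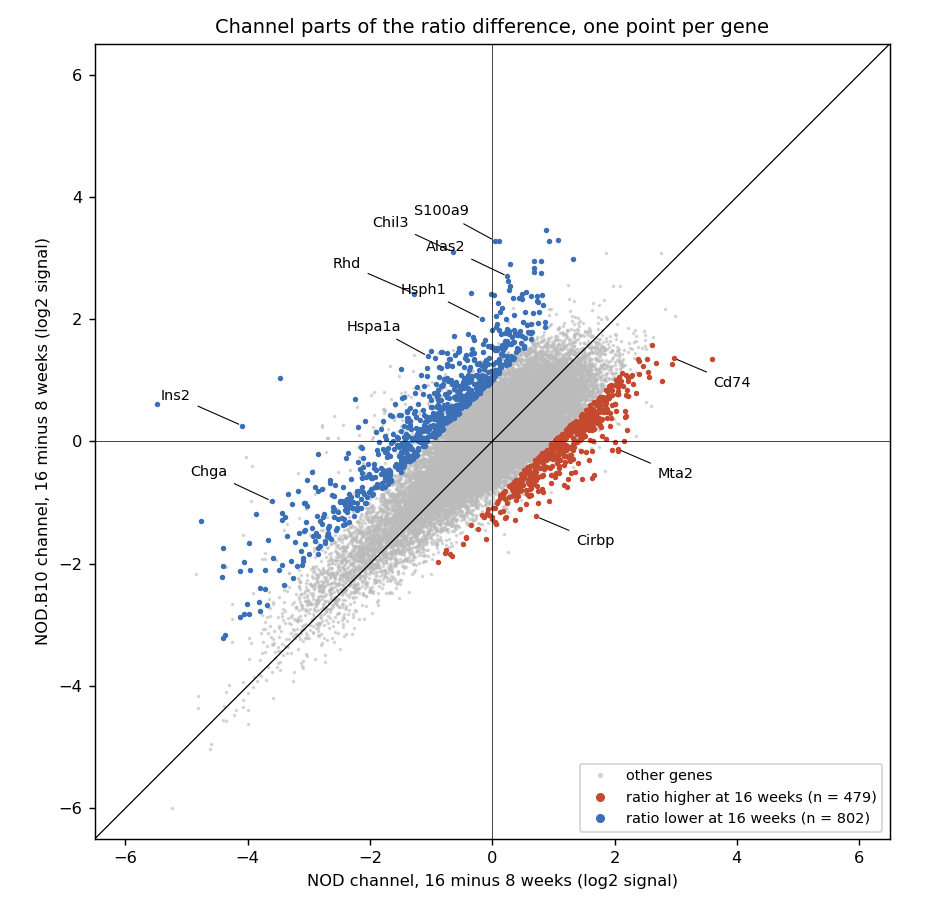
Each point is 1 of 28438 genes, with the difference between 16 and 8 weeks of its NOD signal on the x axis and of its NOD.B10 signal on the y axis, both in log2 units; the diagonal marks an equal change in both channels and so no change of the ratio. Red points are the 479 genes called at least 2-fold higher in ratio and blue points the 802 called at least 2-fold lower. The blue points with the NOD difference near 0 and the control signal up by 2 to 3.5, such as S100a9 and Alas2, are changes carried by the control signal.

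Promoter stretches are shown for genes whose fall the results below turn on, as examples from the heat shock list and the erythroid list, in which members fell and none rose. Only genes that hold the motif in capitals were chosen. Called members without it, such as Dnajb1 and Klf1, are not shown. The sequences are RefSeq's, build GRCm38.p6, 5′ to 3′ on the gene's strand, and lie within the 250 bases before an annotated start. The first 3 have in capitals the core of the heat shock element, the paired motif bound by heat shock factors, searched on both strands as GAANNTTC or TTCNNGAA. They are Hspa1a at chr17:34972203-34972310 (minus strand), Hsph1 at chr5:149636337-149636419 (minus strand) and the 30 bases around the matches of Hspe1 at chr1:55088053-55088082 (plus strand), a stretch that Hspe1 shares with its divergent neighbour Hspd1 and in which 3 matches overlap.
Hspa1a: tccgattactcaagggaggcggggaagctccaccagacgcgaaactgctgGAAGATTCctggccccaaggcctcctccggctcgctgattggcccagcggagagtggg
Hsph1: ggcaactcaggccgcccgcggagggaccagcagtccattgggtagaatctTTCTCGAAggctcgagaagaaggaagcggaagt
Hspe1 and Hspd1: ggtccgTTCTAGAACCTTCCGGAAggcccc
The next 2 have in capitals the GATA box AGATAA, searched on both strands, the motif of the GATA factors that drive red cell genes. They are Rhd at chr4:134864443-134864535 (plus strand) and Kel at chr6:41704326-41704431 (minus strand).
Rhd: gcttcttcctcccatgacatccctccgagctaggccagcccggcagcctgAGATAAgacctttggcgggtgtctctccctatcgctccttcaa
Kel: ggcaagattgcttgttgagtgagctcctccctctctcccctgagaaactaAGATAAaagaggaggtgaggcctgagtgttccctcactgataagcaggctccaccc

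The heat shock motif was found before a start of 4 of the 9 called members of the unfolded protein and heat shock list that the promoter table holds, and of 3 of the 14 members not called, against 14.5% of all 27025 genes. Of the erythroid genes with a promoter sequence at hand, the GATA box was found for 6 of 11 called and 1 of 5 not called, against 11.4% of all genes. A match is a description of these letters and does not show that a factor binds there.

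Red cell genes had a lower ratio at 16 weeks, and the control signal carried it. Of 24 erythroid genes measured, 16 fell (6.73% of all genes did so) and none rose. The median difference was -1.69, against -0.03 over all genes. The NOD signal of the list had a median difference of 0.28, with 1 member up and 1 down, whereas the control signal rose for 22 of 24 members (21.4% of all genes did so) with a median of 2.26. The list mean of the control channel was 8.87 to 9.28 on the 4 arrays at 8 weeks and 10.64 to 11.22 on the 6 at 16 weeks, with no overlap, while the NOD channel ran from 8.83 to 10.03 and from 8.86 to 10.53. In a bulk sample, more cells of a type and more RNA in each cell cannot be told apart.

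Alas2, the first enzyme of haem synthesis in red cell precursors, had ratios of 0.90, 0.00, 0.53 and 1.56 in replicates 1 to 4 at 8 weeks and of -1.97, -1.59, -2.71, -1.78, -0.34 and -1.82 in replicates 1 to 6 at 16 weeks. All arrays at 16 weeks lay below all arrays at 8 weeks. The difference was -2.45 (SE 0.54, adjusted p = 0.0023, 5.47-fold lower), made of 0.25 in NOD and 2.70 in NOD.B10. Its control signal was 10.48 to 10.97 at 8 weeks and 13.14 to 13.92 at 16 weeks. Rhd, which encodes the Rh blood group protein, fell from 0.09 ± 1.31 (SD, n = 4) to -3.60 ± 1.11 (SD, n = 6), a difference of -3.70 (SE 0.74, adjusted p = 0.00090). Kel, another blood group protein of the red cell surface, fell by 1.96 (SE 0.56, adjusted p = 0.017), with 2.75 in the control. Tal1, a transcription factor of red cell formation, fell by 2.37 (SE 0.41, adjusted p = 0.00017), and its control signal alone moved by 2.63. Hemgn, a nuclear protein of blood cell precursors, fell by 2.78, and its difference in the control channel was 2.43. For Car1, carbonic anhydrase of red cells, the NOD signal fell by 1.12 and the control difference of 0.43 did not pass, which gave a fall of 1.54 in the ratio. Redrum, a long non-coding RNA of red cell maturation that is outside the list, fell by 2.43 with the NOD signal at -0.02.

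Gata1 at -0.98 and the haemoglobin gene Hba-a1 at -1.32 were not called. Without replicate 2 at 8 weeks, where 7.02% of all genes fell and 5.02% rose, 17 members fell. Within the 1 scanner that read arrays of both ages 3 fell (677 of all 28438 genes did so). With scan day as a random block 8 fell (1100 of all genes). With the extraction version as a block none fell (493 of all genes), at a median of -1.40.

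Genes of neutrophils and their precursors had a lower ratio at 16 weeks, also through the control signal. Of 22 members 10 fell (6.73% of all genes did so), none rose, and the medians were -0.93 for the ratio, 0.57 for NOD and 1.74 for NOD.B10, where 16 members rose. The list mean of the control channel lay between 8.49 and 8.79 at 8 weeks and between 10.13 and 10.44 at 16 weeks. On the NOD side replicate 6 at 16 weeks reached 10.57 and the other 5 arrays 8.52 to 9.42, so the NOD values of both ages overlapped.

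Chil3, a chitinase-like protein of myeloid cells, had ratios of 0.96, -0.72, 0.42 and 0.67 at 8 weeks and of -4.19, -2.79, -4.85, -3.50, -3.47 and -1.64 at 16 weeks. The groups did not overlap, and the difference of -3.74 (SE 0.65, adjusted p = 0.00017, 13.3-fold lower) was the lowest that the rule for named genes found among genes whose ages did not overlap. Its control signal moved by 3.10 and its NOD signal by -0.64, a change that did not pass (adjusted p = 0.51). S100a9, a subunit of the calcium-binding protein calprotectin, had a control signal of 13.82 to 14.17 at 8 weeks and 17.08 to 17.65 at 16 weeks, and a NOD signal of 13.84 to 15.01 and 12.75 to 16.70. Its ratio fell by 3.24 (SE 0.57, adjusted p = 0.00021) and that of its partner S100a8 by 2.62 (SE 0.63, adjusted p = 0.0051). Camp, the antimicrobial peptide cathelicidin, fell by 2.58, and the precursor gene Ms4a3 by 1.90. Elane, neutrophil elastase, at 0.20 and Lcn2, lipocalin, at -0.09 were not called. With the extraction version as a block 2 of the 22 members fell (493 of all 28438 genes did so).

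**Figure D2:**
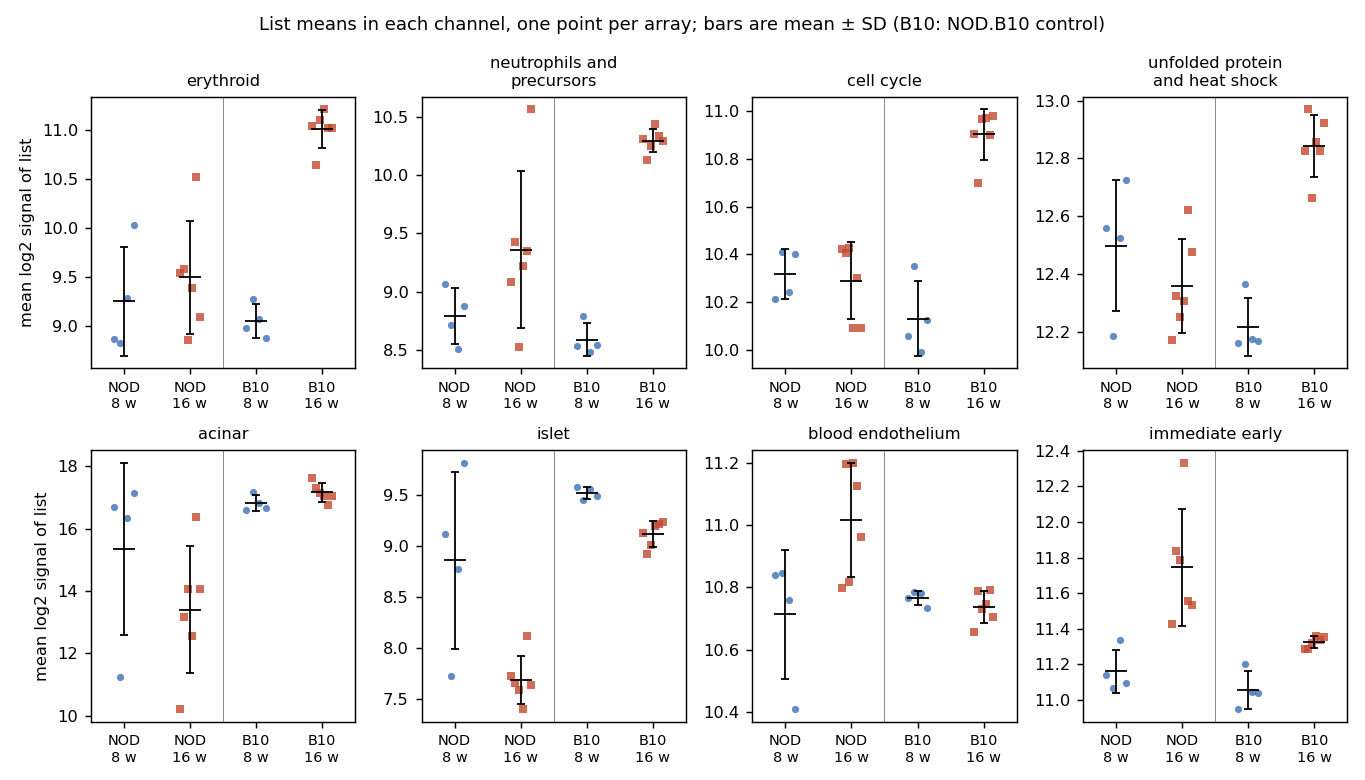
Mean log2 signal of the members of 8 gene lists on each array (y axis), with NOD and NOD.B10 channels at 8 weeks (blue circles, n = 4) and 16 weeks (red squares, n = 6); bars are the mean and SD, and each panel has its own axis. The control channel separates the ages for every list shown except acinar and blood endothelium. It is lower at 16 weeks for the islet list and higher for the erythroid, neutrophil, cell cycle, heat shock and immediate early lists. The acinar values of NOD at 8 weeks run from 11.23 to 17.15.

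Proliferation genes had a lower ratio at 16 weeks, again through the control signal. Of 55 cell cycle genes 29 fell (6.73% of all genes did so) and 1, the phosphatase Cdc25b, rose. The values of the ages did not overlap for 31 of the 55 members, against 14.9% of all genes. The median differences were -0.77 for the ratio, 0.03 for NOD and 0.91 for NOD.B10, and the control signal rose for 42 members. The list mean of the ratio was 0.15, 0.06, 0.25 and 0.28 at 8 weeks and -0.48, -0.29, -0.54, -0.88, -0.60 and -0.89 at 16 weeks.

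Cdc20, the activator of the anaphase-promoting complex, had ratios of 0.27, -0.06, 0.43 and -0.12 at 8 weeks and of -1.61, -1.49, -1.61, -2.17, -1.72 and -2.07 at 16 weeks. Its difference of -1.91 (SE 0.29, adjusted p = 2.81e-05) combined a fall of 0.86 in NOD with a control part of 1.05, and both channels passed. Tyms, the enzyme that makes thymidylate for DNA synthesis, fell by 1.55 (SE 0.25) with a NOD part of -0.77. Cdca5, sororin of sister chromatid cohesion, fell by 1.65, although its other probe differed by 0.53, which did not pass. Pcna, the sliding clamp of replication, fell by 1.14 (SE 0.19, adjusted p = 0.00013, on 3 arrays at 8 weeks). Mki67, the proliferation marker, fell by 1.48, whereas Plk1 at -0.25, Foxm1 at -0.21 and Tk1 at -0.02 were not called. Only 5 members fell within the shared scanner (677 of all 28438 genes did so) and 5 with the extraction version as a block (493 of all genes). The medians were -0.63 in both.

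The control signal of the arrays at 8 weeks was the lowest of the 6 ages for these 3 lists. The erythroid mean of the NOD.B10 channel was 9.05 ± 0.17 (SD, n = 4) on those arrays and 10.43 to 11.77 on average at the other 5 ages. The neutrophil mean was 8.59 ± 0.14, against 9.61 to 10.97, and the cell cycle mean 10.13 ± 0.16, against 10.86 to 11.52. For the NOD channel at 8 weeks the same means were 9.25 ± 0.56, 8.79 ± 0.24 and 10.32 ± 0.10. Whether another control RNA was used on these arrays was not tested.

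Chaperone genes also had a lower ratio at 16 weeks. Of 25 genes of the unfolded protein and heat shock list 10 fell (6.73% of all genes did so) and none rose. The medians were -0.58 for the ratio, -0.23 for NOD and 0.61 for NOD.B10. Hspa1a, an inducible chaperone of the HSP70 family whose promoter stretch is shown above, had ratios of 1.53, 1.24, 0.98 and 0.51 at 8 weeks and of -1.62, -1.18, -2.01, -0.75, -1.91 and -0.83 at 16 weeks. The NOD signal was thus above the control on every array at 8 weeks and below it on every array at 16 weeks. The difference was -2.45 (SE 0.43, adjusted p = 0.00017), of which the control carried 1.40 and passed, and NOD carried -1.05 and did not (adjusted p = 0.077). Its other 3 probes differed by -2.75, -0.48 and -0.96, of which the first passed.

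Hsph1, a co-chaperone of the HSP110 family, fell by 2.17 (SE 0.43, adjusted p = 0.00080), with a NOD part of -0.16 and the rest in the control. Hsp90aa1, the inducible form of the chaperone HSP90, fell by 1.74 (SE 0.33, adjusted p = 0.00042). The mitochondrial chaperonin genes Hspd1 and Hspe1, which share the third stretch, fell by 1.03 and 1.01, but Hspd1 through a control part of 0.80 and Hspe1 through a NOD part of -0.94. Of the endoplasmic reticulum members the chaperones Hspa5 at -0.40, Hsp90b1 at -0.25 and Calr at -0.02 were not called, while Creld2, a stress-induced protein of that compartment counted with the plasma cell list, fell by 1.60 (SE 0.18, adjusted p = 6.20e-07). Hspa1b, nearly identical to Hspa1a, at -0.45 was not called, and probes of these 2 genes may detect both. In this list 3 members fell with the extraction version as a block (493 of all 28438 genes did so). Without replicate 2 at 8 weeks 14 fell (7.02% of all genes), and the median moved to -0.73. Among arrays of version 8.5.1.1 alone the median was 0.03.

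Subunits of the respiratory chain moved by less. Of 62 oxidative phosphorylation genes 18 fell (6.73% of all genes did so) and 1 rose, with a median of -0.26. The list mean of the ratio ran from -0.20 to 0.14 at 8 weeks and from -0.35 to -0.23 at 16 weeks. Atp5a1, a subunit of the ATP synthase, fell by 0.73 (SE 0.13, adjusted p = 0.00022), where both channels had dropped, NOD by 1.59 and NOD.B10 by 0.86. Uqcrc2, a core subunit of complex III, fell by 0.80 (SE 0.15, adjusted p = 0.00050) through NOD, although its other probe differed by 0.53, which did not pass. Within the shared scanner 4 members fell (677 of all 28438 genes did so) and with the extraction version as a block 3 (493 of all genes). Among arrays of version 8.5.1.1 alone the median was -0.01.

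**Figure D3:**
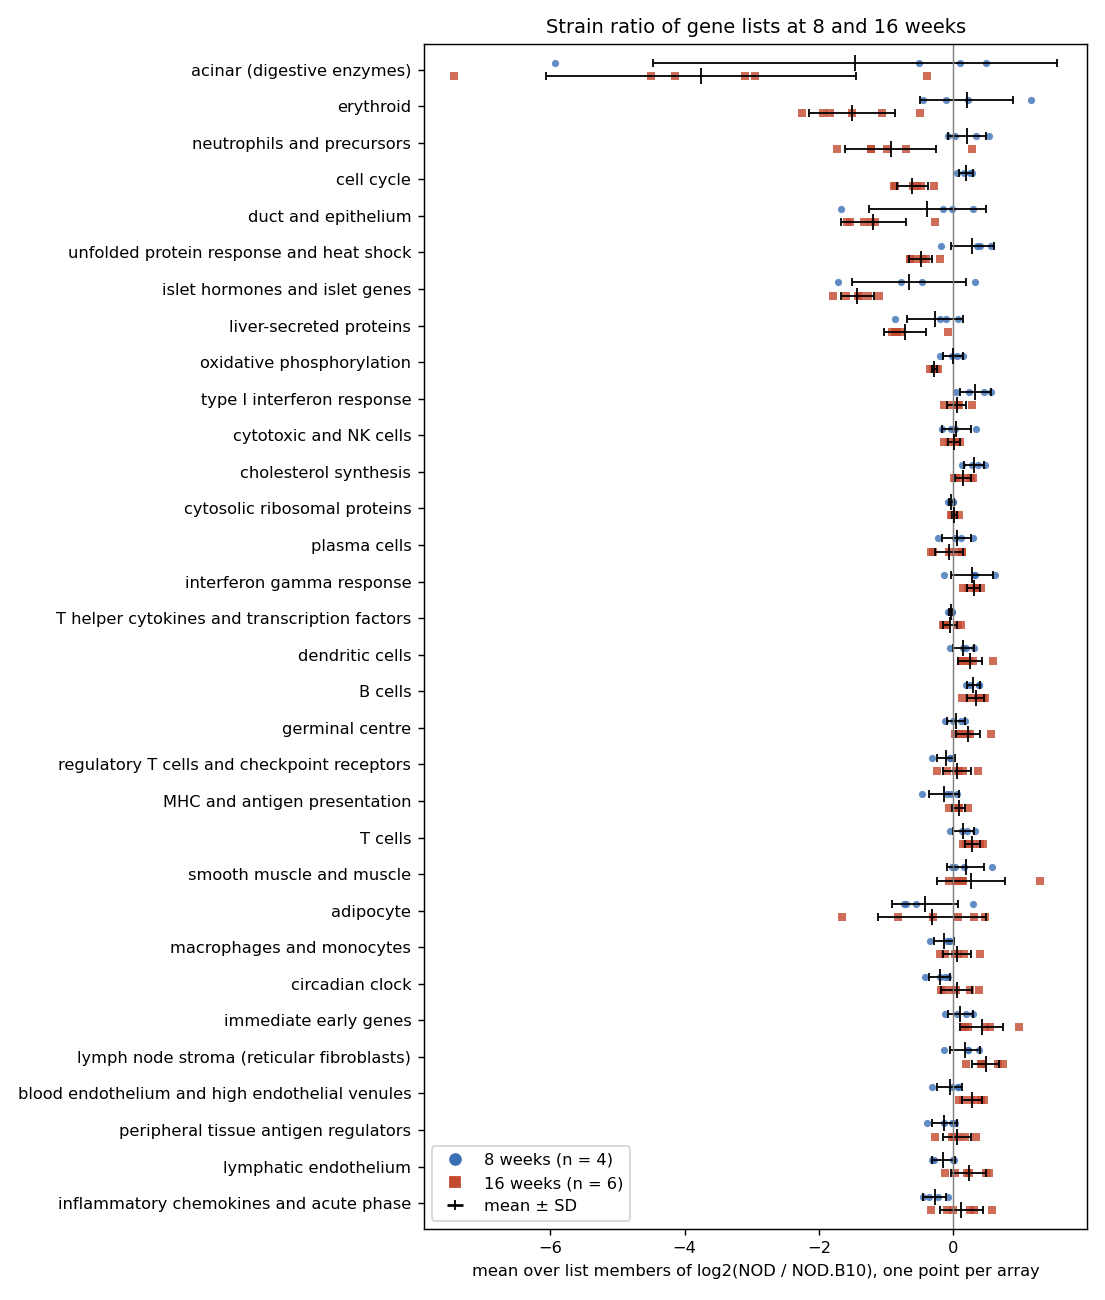
Mean log2 ratio of NOD over NOD.B10 over the members of each of 32 gene lists, 1 point per array at 8 weeks (blue circles, n = 4) and 16 weeks (red squares, n = 6), with the mean and SD; lists are ordered by the median difference. The erythroid, cell cycle, heat shock and oxidative phosphorylation lists separate the ages below, blood endothelium separates them above, and the acinar list spreads from -7.43 to 0.49.

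Pancreatic genes varied widely between arrays of the same age. All 41 acinar genes measured had a lower mean ratio at 16 weeks (median -2.12), yet only 2 were called, the regeneration genes Reg3a and Reg2. Of all genes 6.73% were called lower. The list mean of the ratio was 0.10, -5.93, -0.51 and 0.49 at 8 weeks, so that replicate 2 lay far below the others, and -7.43, -4.15, -3.11, -4.51, -0.39 and -2.96 at 16 weeks. The NOD channel carried this spread, from 11.23 to 17.15 and from 10.21 to 16.38, and the control channel ran from 16.60 to 17.17 and from 16.77 to 17.64. The control signal was saturated on at least 1 array for 22 of these genes, which bounds their ratios, and Reg2 was saturated in it on all 10 arrays, so no size is given. Reg3a, a secreted lectin of acinar cells, had a ratio of -2.31 ± 2.54 (SD, n = 4) at 8 weeks and -6.81 ± 1.07 (SD, n = 6) at 16 weeks, and at 16 weeks NOD exceeded background clearly on 4 arrays of 6. Without replicate 2 at 8 weeks the median moved to -3.73 with 6 genes called, and with the extraction version as a block to -0.07 with none called. Among arrays of version 8.5.1.1 alone, where that replicate is the only one at 8 weeks, the direction turned, to a median of 2.33.

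Islet genes had a lower ratio at 16 weeks in 29 of 37 members, of which 5 passed (6.73% of all genes did so), and 1 of the other 8 rose. The median was -0.42 in the ratio, -0.98 in NOD, where 18 members fell (16.4% of all genes did so), and -0.43 in the control, where 15 fell (17.9% of all genes). Ins2, which encodes insulin, had ratios of -1.01, -4.48, -2.53 and 0.87 at 8 weeks and of -6.94, -6.73, -6.74, -7.05, -2.04 and -7.32 at 16 weeks. Replicate 5 at 16 weeks was the highest of its age, and replicate 2 the lowest of the 8-week arrays, so the ages overlapped. The difference was -4.35 (SE 1.33, adjusted p = 0.028), carried by NOD with -4.09, while the control signal held between 15.43 and 16.19 on all 10 arrays. Ins1, the second insulin gene, differed by -2.76 (SE 1.07) and was not called (adjusted p = 0.089), but passed without replicate 2 at 8 weeks (-3.93, adjusted p = 0.014). Chga, the granule protein chromogranin A, fell by 2.63 (SE 0.86, adjusted p = 0.041, on 5 arrays at 16 weeks), and NOD exceeded background clearly on 3 of those. Pcsk2, a prohormone convertase, fell by 1.38 and Ica1, an islet autoantigen, by 1.31, although the other 2 probes of Ica1 differed by 0.06, which did not pass, and -1.10, which did. Cpe, the carboxypeptidase of hormone processing, rose by 1.18 (SE 0.28), and the beta cell factors Pdx1 at -0.03 and Nkx2-2 at -0.27 were not called. As in the acinar list, Ins2 was highest in replicate 4 and lowest in replicate 2 at 8 weeks and highest in replicate 5 at 16 weeks, while replicate 6 at 16 weeks was the lowest for Ins2 and the second highest for the acinar list. The part of the acinar spread in these values was not tested. With the extraction version as a block no islet gene fell, and Ins2 was at -2.76 (adjusted p = 0.46). Without replicate 2 at 8 weeks 14 fell, and among arrays of version 8.5.1.1 alone the median turned to 0.29.

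Deaf1, a transcription factor that drives peripheral tissue antigens in lymph nodes, was not called. Its ratios were -0.62, -5.98, -0.92 and 0.46 at 8 weeks and -6.32, -3.82, -3.30, -4.53, -0.08 and -3.59 at 16 weeks, a difference of -1.84 (SE 1.19, adjusted p = 0.37). Like the acinar list means, they were highest in replicate 4 and lowest in replicate 2 at 8 weeks, and highest in replicate 5 and lowest in replicate 1 at 16 weeks. The control signal of Deaf1 was 16.34, 16.24 and 16.20 in replicates 1, 3 and 4 at 8 weeks, 14.15 in replicate 2 and 13.33 to 14.07 at 16 weeks. Its other 2 probes differed by 0.12 and -0.01. Aire, the regulator of tissue antigens in the thymus, was at 0.60 (SE 0.24, adjusted p = 0.10), and passed without replicate 2 at 8 weeks (adjusted p = 0.048). Of the 10 genes of that regulator list Relb, an NF-kB subunit of dendritic cells, rose by 1.08 (SE 0.17, adjusted p = 5.62e-05), as did Cd274, which encodes PD-L1, by 0.81 (SE 0.17, adjusted p = 0.0016). The rise of Cd274 lay in the control signal, which fell by 0.86, while NOD differed by -0.05.

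B cell genes split. Of 25 measured, 5 rose (5.52% of all genes did so) and 5 fell (6.73% of all genes), with a median of 0.15. Cd79b, a signalling chain of the B cell receptor, had ratios of -0.06, 0.33, 0.13 and -0.27 at 8 weeks and of 1.73, 1.11, 1.49, 1.44, 1.26 and 1.45 at 16 weeks. It rose by 1.38 (SE 0.16, adjusted p = 7.75e-07), with 1.45 in NOD. Its partner chain Cd79a was at 0.27 and not called. Btk, the kinase downstream of that receptor, rose by 1.65 (SE 0.33, adjusted p = 0.00075) with the control at 0.00. Cd38, an ectoenzyme of activated B cells, rose by 0.998. Tnfrsf13c, the receptor for the survival factor BAFF, fell by 1.01 (SE 0.19, adjusted p = 0.00038), Ms4a1 (CD20) fell by 0.78 and the scaffold Bank1 by 1.08, whereas Pax5 at -0.20 was not called. The list mean of the ratio overlapped, 0.19 to 0.38 at 8 weeks and 0.12 to 0.46 at 16 weeks. Of 19 germinal centre genes 3 rose (5.52% of all genes did so), among them the enzyme Il4i1 by 0.94 and the death receptor Fas by 0.57.

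MHC genes gave 5 rises (5.52% of all genes rose) and 2 falls (6.73% of all genes fell) among 34. Cd74, the invariant chain that guides class II molecules, had ratios of 0.26, 0.66, 0.71 and -0.21 at 8 weeks and of 1.91, 2.22, 2.01, 2.08, 1.85 and 1.70 at 16 weeks. Its signal rose in both channels, by 2.97 in NOD and by 1.36 in the control, which left a ratio difference of 1.61 (SE 0.19, adjusted p = 6.39e-07). The class II chains did not pass: H2-Aa was at 0.44, H2-Ab1 at 0.26 and H2-Eb1 at 0.69 (SE 0.26, adjusted p = 0.077), the last of which passed without replicate 2 at 8 weeks. For the classical class I genes the difference was 0.00 (SE 0.31, with 5 arrays at 16 weeks) for H2-K1 and 0.04 (SE 0.19) for H2-D1, neither of which was called. Among non-classical genes H2-M3 fell by 0.77, whereas its other probe differed by 0.28 and did not pass, and H2-T10 and H2-Q2 rose by 0.66 and 1.49 as the control signal fell. The MHC differs in sequence between the strains, and probes of these related genes may detect more than 1 of them.

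Of 30 T cell genes 4 rose (5.52% of all genes did so) and 1 fell, with a median of 0.21, and none was called with the extraction version as a block. Lat, the adaptor of T cell receptor signalling, rose by 0.59 (SE 0.15, adjusted p = 0.0069), and Cd6, a co-receptor, and Satb1, a chromatin organiser, rose by 0.63 and 0.70. Trat1, an adaptor of the receptor complex, fell by 0.88. The ratio difference was positive for 21 of the 30 members and negative for 9, called or not. The T cell marker Cd3e had a mean NOD signal of 11.87 ± 1.68 (SD, n = 4) at 8 weeks and 9.75 ± 0.79 (SD, n = 6) at 16 weeks. Its mean control signal was 12.145 and 10.804. Foxp3, the factor that defines regulatory T cells, had ratios of -0.32, -0.39, -1.13 and -0.78 at 8 weeks and of 0.16, 0.72, -0.32, 0.81, 0.89 and 0.55 at 16 weeks. One array at 16 weeks (replicate 3) reached the highest array at 8 weeks. The rise of 1.12 (SE 0.34, adjusted p = 0.027) lay in NOD with 1.17, and at 16 weeks the control signal cleared background on 3 arrays of 6. Tgfb1, a cytokine that induces such cells, rose by 0.98, Entpd1, the ectoenzyme CD39, fell by 0.94 (SE 0.18, adjusted p = 0.00058), and the checkpoint receptor Ctla4 was at 0.50 (SE 0.30, adjusted p = 0.32).

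Of 27 T helper cytokine and factor genes the cytokine Lta rose by 0.81 (on 5 arrays at 16 weeks) and the factor Maf fell by 0.52. Over all genes 5.52% rose and 6.73% fell. Of the other 2 probes of Maf, 1 differed by 0.36 and did not pass. The interferon gene Ifng was at -0.95 (SE 0.34, adjusted p = 0.062) and the growth factor gene Il2 at 0.76 (SE 0.37, adjusted p = 0.20). Prf1, the pore-forming protein of killer cells, fell by 1.41 (SE 0.29, adjusted p = 0.0013), a control part of 1.49 with NOD at 0.08.

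The type I interferon genes that were called all had a lower ratio at 16 weeks. Of 34 type I interferon genes 5 fell and none rose. That is 14.7%, against 12.2% of all genes called in either direction and 6.73% called lower. With the extraction version as a block 1 fell (493 of all 28438 genes did so). Isg20, an antiviral exonuclease, went from ratios of 0.01 to 1.05 at 8 weeks to -1.85 to -0.94 at 16 weeks, a difference of -1.99 (SE 0.31, adjusted p = 4.09e-05). Rsad2, viperin, fell by 1.91 and the ubiquitin-like modifier Isg15 by 1.45. The control signal carried 2.12, 2.34 and 1.95 of these 3 differences, and none passed in NOD. The median of the list was -0.11, and Ifit1 at -0.17, Mx1 at 0.09 and Irf7 at 0.22 were not called. Of 27 genes of the interferon gamma response 3 rose (5.52% of all genes did so) and 3 fell (6.73% of all genes). Gbp9 rose by 1.502 (SE 0.20, adjusted p = 4.51e-06, on 3 arrays at 8 weeks) and Gbp5 fell by 1.62 (SE 0.32, adjusted p = 0.00087), both guanylate-binding GTPases and both through NOD.

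Vessel and stroma genes rose more often than they fell. Of 27 genes of blood endothelium and high endothelial venules 7 rose (5.52% of all genes did so) and 1, the adhesion molecule Pecam1, fell, and the list means did not overlap, -0.33 to 0.07 at 8 weeks and 0.08 to 0.45 at 16 weeks. Sox18, a transcription factor of vessels, had ratios of 0.20, 0.32, 0.44 and -0.44 at 8 weeks and of 1.15, 2.002, 1.26, 1.60, 1.77 and 1.77 at 16 weeks, with no overlap. It rose by 1.46 (SE 0.20, adjusted p = 6.58e-06) with 1.67 in NOD. Glycam1, a ligand for lymphocyte homing made by high endothelial venules, rose by 1.10 (SE 0.27, adjusted p = 0.0052) through a fall of 1.10 in the control signal, and Cdh5, the endothelial cadherin, by 1.11 likewise. Of 18 lymphatic genes 4 rose, led by the tight junction protein Cldn5 with 1.36 (SE 0.22, adjusted p = 6.93e-05), but 2 rose without replicate 2 at 8 weeks, 1 with scan day as a random block and 1 with the extraction version as a block. Among reticular stroma genes 4 of 27 rose, among them the matrix proteins Bgn by 1.16 and Col6a1 by 1.53, whose control signal cleared background on none of the 8-week arrays and on 2 of the 16-week arrays. The median of the blood endothelium list was 0.35, and 0.15 without replicate 2 at 8 weeks, where 9 members rose. With the extraction version as a block 2 of the 27 blood endothelium genes and none of the stroma genes were called.

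Macrophage genes gave 5 rises (5.52% of all genes rose) and 2 falls (6.73% of all genes fell) among 30. C1qa, a chain of complement C1q, rose by 1.24 (SE 0.30, adjusted p = 0.0045), Apoe, a lipid carrier, by 1.16 (SE 0.23, adjusted p = 0.00094), and Gpnmb, a glycoprotein of lipid-laden macrophages, by 1.15. Csf1r, the receptor for macrophage growth factor, rose by 0.65, although 1 of its other 2 probes was at -0.32 and its call was lost without replicate 2 at 8 weeks (adjusted p = 0.052).

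Immediate early genes, which respond within minutes to stimulation, gave 7 rises and no fall among 27, and 4 rises without replicate 2 at 8 weeks. Over all genes 5.52% rose, and 5.02% without that replicate. Fos had ratios of -0.05, -0.96, 0.90 and -0.09 at 8 weeks and of 0.65, 1.17, 1.61, 2.73, 1.09 and 0.81 at 16 weeks, which overlapped. It rose by 1.39 (SE 0.36, adjusted p = 0.0084) and was not called without replicate 2 at 8 weeks (1.09, adjusted p = 0.053). Zfp36, which destabilises cytokine messages, rose by 1.12 (SE 0.17, adjusted p = 4.52e-05). Jun at -0.17 and Nr4a1 at -0.26 were not called. Of 21 clock genes 4 rose (5.52% of all genes did so), and 1 rose without replicate 2 at 8 weeks. The output factor Dbp led the 4 with 1.31 (SE 0.29, adjusted p = 0.0025).

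Of 23 genes of cholesterol synthesis 4 fell (6.73% of all genes did so). Hsd17b7 led them with -0.99 (SE 0.19, adjusted p = 0.00045), of which 0.52 was a drop in NOD. The other probe of Hsd17b7 differed by 0.27, which did not pass. Of 65 cytosolic ribosomal protein genes 2 rose and 3 fell, which is 7.69% against 12.2% of all genes, and 18 members were saturated in NOD and 16 in the control on at least 1 array. No gene of the liver-secreted list (20 measured) or of the muscle list (20 measured) was called in limma, where the liver medians were -0.36 for the ratio and 0.57 for the control.

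Most of the largest rises that the rule for named genes found were outside these lists. Mta2, a subunit of the NuRD chromatin complex, went from 0.10 ± 0.30 (SD, n = 4) to 2.27 ± 0.14 (SD, n = 6), a rise of 2.18 (SE 0.20, adjusted p = 1.64e-08), and Strn4, a striatin of phosphatase complexes, from -0.19 ± 0.12 to 1.83 ± 0.07, a rise of 2.02 (SE 0.15, adjusted p = 2.61e-10). Other rises through NOD were those of Tmem86a, a lysoplasmalogenase (1.81), Ppp1r18, phostensin (1.78), Mylip, a ubiquitin ligase of the LDL receptor (1.71), the zinc finger gene Zfp646 (1.70), and Rapgef4, an exchange factor that senses cyclic AMP (1.68). Cirbp, a cold-inducible RNA-binding protein, rose by 1.95 (SE 0.36, adjusted p = 0.00035) and Gna13, a G protein subunit, by 1.66, and in both the control signal fell, by 1.23 and 1.28, while NOD did not pass. Cebpa, a factor of myeloid cells and fat, rose by 1.62 with 1.03 in NOD.

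**Figure D4:**
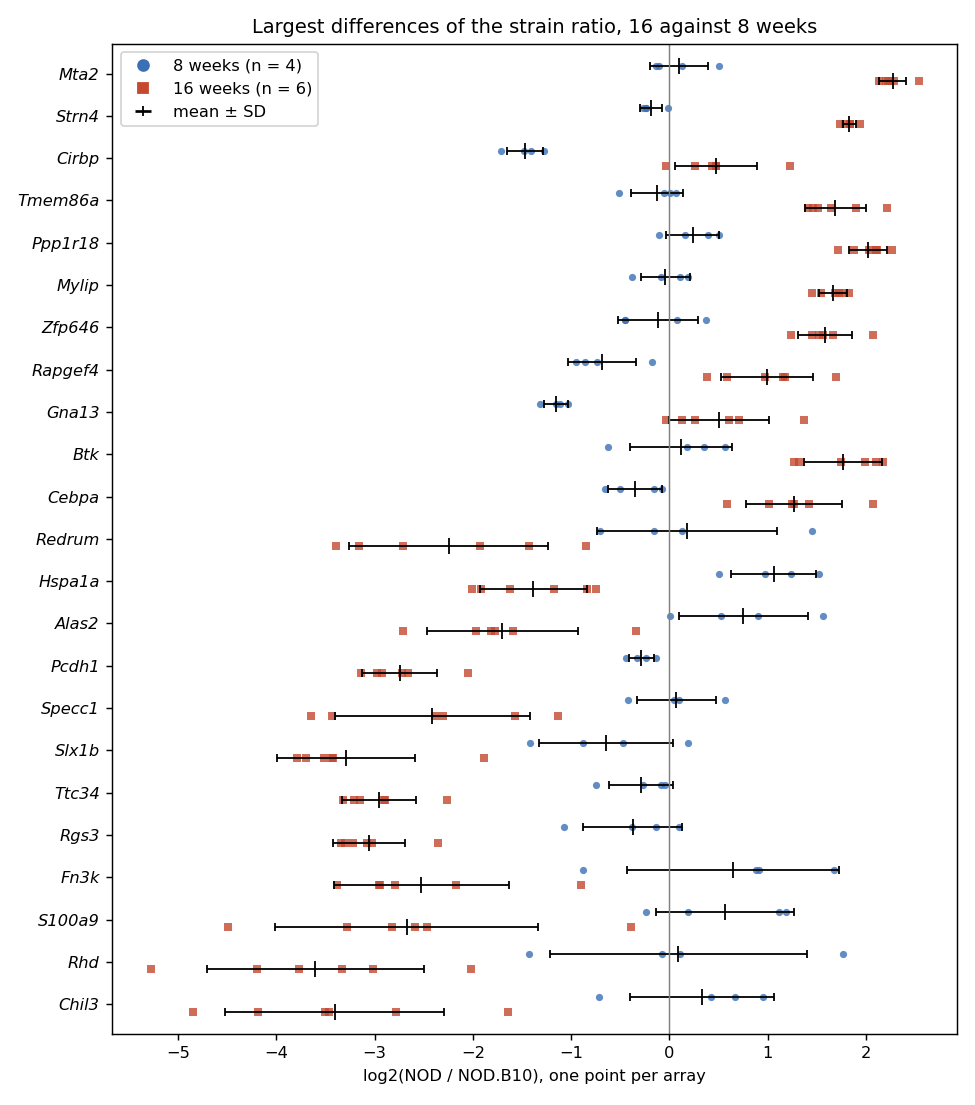
Log2 ratio of NOD over NOD.B10 on each array for the highest and lowest differences that the rule named, at 8 weeks (blue circles, n = 4) and 16 weeks (red squares, n = 6), with the mean and SD. The rule took only genes whose ages do not overlap, so the gap is no finding; the 16-week arrays of Strn4 lie within 1.74 to 1.94, and those of Chil3 spread from -4.85 to -1.64.

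Among genes whose ages did not overlap, and beside the red cell, neutrophil and heat shock genes, the largest falls that the rule named were those of Fn3k, a kinase that repairs glycated proteins (-3.17, control part 3.27), Rgs3, a regulator of G protein signalling (-2.68), Ttc34, a tetratricopeptide gene (-2.67), the nuclease subunit gene Slx1b (-2.65), Specc1, a cytoskeletal protein (-2.49), and Pcdh1, a protocadherin (-2.46). Rgs3, Ttc34, Slx1b and Pcdh1 fell through NOD. The NOD signal of Ttc34 was 14.85, 13.18, 14.80 and 15.41 at 8 weeks and 9.66 to 11.01 at 16 weeks, and its control signal fell as well, by 1.74. The probe of 4921534H16Rik fell by 3.46 (SE 1.12, adjusted p = 0.038) and, like the acinar list, was highest in replicate 4 (0.38) and lowest in replicate 2 at 8 weeks.

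Several of these sizes belong to 1 probe. The other 4 probes of Rgs3 had differences of 0.48 to 1.22, of which 1 passed as higher, the other probe of Ttc34 was at 0.33, the other 2 of Mta2 at -0.62 and 1.08, that of Zfp646 at 0.00 and that of Cebpa at -0.12. Of 54 named genes that changed and have several probes, 34 had all other probes on the same side and 20 did not. Of the 124 named genes that changed, 115 kept direction and call without replicate 2 at 8 weeks, 64 within the shared scanner, 97 with scan day as a random block, 44 with the extraction version as a block and 18 among arrays of version 8.5.1.1. In all of these and with the scanner as a block, 16 genes kept both: Mta2, Strn4, Tmem86a, Ppp1r18, Mylip, Rapgef4, Cd74, Gbp9, Sox18, Cd79b and Cldn5, which rose, and Pcna, Creld2, Pcdh1, Ttc34 and Rgs3, which fell.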

How the data were processed

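Per the labels' protocols and the file headers, each array carried Cy3-labelled NOD and Cy5-labelled NOD.B10 RNA. The processed intensity of each channel had been background-subtracted, spatially detrended and dye-normalised (linear and lowess), with surrogates for low signals, per the file headers; raw mean and background intensities were used for an alternative. The log10 ratio deposited by the authors has the opposite sign to the scanner's own and the same size. The submitters' processing notes name Agilent Feature Extraction 8.5; the headers give 8.1.1.1 and 8.5.1.1.

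The log2 ratio of processed signals was computed here, without outlier spots or control spots. A probe was kept if either channel was well above background on 4 or more of 35 arrays (40833 of 41174), with the brightest probe per gene: 28438 genes, 19260 with a symbol. Names were updated through a RefSeq table (GRCm38.p6) (accession 21445 probes, symbol 5431, synonym 4636, no match 9662). limma 3.58.1 (R 4.3.3) fitted the 6 age means over all 35 arrays, with eBayes and Benjamini-Hochberg adjustment at 0.05. Channels were fitted after A-quantile normalisation, which keeps the ratio. The code was tested on simulated data.

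Named genes are the 12 highest and 12 lowest differences of at least 1 with no overlap and both channels measured and not saturated, the 6 largest carried by each channel (a part of at least 0.75), up to 4 called members per list, and 13 fixed genes; other list members were named after their values were seen. The members, the 32 gene lists and the rule were chosen with earlier results of these data known. Some genes are not reported here. Lists were given by counts and medians. Alternatives were normexp (offset 50), the deposited values, filters, centring, other probe rules, batch and replicate blocks, array weights, a size limit of 0.5 and each array left out. Arrays of the other ages entered the shared estimate of spread.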

Additional observations from a re-analysis of the deposited data

Results flagged for a closer look

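The value of 1 array lay far from the others of its age for 13 of 148 groups of values examined (gene lists and named genes, at each age), and chance gives about 1 in 20. The gap to the nearest array, set against the range of the group, exceeded Dixon's critical value in each.

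Replicate 5 at 16 weeks stood apart most often. It was the highest array of its age for Ins2 (-2.04), Ins1 (-1.47), Rgs3 (-2.36), Slx1b (-1.89) and the duct and epithelium list (-0.27), and the lowest for Ifng (-1.98). Its acinar list mean was also the highest of the 16-week arrays, at -0.39.

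Replicate 2 at 8 weeks was the lowest array of its age for the acinar list (-5.93) and the macrophage list (-0.35) and the highest for Strn4 (-0.016). Replicate 4 at 8 weeks was the lowest for the regulatory T cell list (-0.32). At 16 weeks replicate 6 was the highest for the liver-secreted list (-0.081), replicate 4 for the muscle list (1.29) and replicate 2 for Mta2 (2.54).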

How the results depend on the processing

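Of 3482 genes called, the count moved by over 1.5 times with the extraction version as a block (918, of which 805 were among the 3482), scan day as a random block (2020), array weights (7347), a size limit of 0.5 (210), within the shared scanner (1403) and within version 8.5.1.1 (264). Each array left out in turn gave 2191 (without replicate 4 at 8 weeks, also a move of over 1.5 times) to 3423 (without replicate 2 at 8 weeks). Pairing by replicate number was checked: same-numbered arrays correlated at -0.18, -0.12, 0.03 and -0.19, so the numbers do not pair the arrays; with the replicate block 0 genes were called in limma, 5761 at an unadjusted p under 0.05.

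Normexp (3763), the deposited values (3717), no filter (3475), the strict filter (3640 of 10228), centring (3345), the mean of probes (2411), the 10 arrays alone (3595) and the scanner as a block (2657) stayed within 1.5 times. Without both arrays that stood apart, 3312 were called. The last setting and both fits within a scanner or version were added after seeing the data.

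Of the 124 named genes called, 6 turned direction under a setting, and turns of the named genes not called were not counted. Rgs3 turned to 0.077 with the mean of its probes. Within version 8.5.1.1, 4921534H16Rik turned to 0.54, Chga to 0.54, Pcsk1 to 0.20, Pcsk2 to 0.12 and Fkbp11 to 0.88. The cause was not tested. Dim control signals limit Foxp3, Ctla4, Il2 and Col6a1.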

Other observations

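The called genes of the plasma cell list did not move together: Sdc1, the surface marker syndecan, rose by 1.01 (SE 0.26, adjusted p = 0.0078), whereas Creld2 and Fkbp11, a prolyl isomerase of secretory cells, fell, the latter by 2.02 (SE 0.68, adjusted p = 0.047). Fkbp11 had ratios of 0.57, -3.00, 0.39 and 1.66 at 8 weeks and of -3.00, -2.44, -2.01, -2.79, 0.03 and -2.51 at 16 weeks, where the lowest 8-week array and the highest 16-week array are also the extremes of the acinar list. Its second probe differed by 0.12. In the inflammatory list 23 of 27 genes had a higher mean ratio at 16 weeks (median 0.44), but 2 passed, the signalling inhibitors Socs3 with 0.73 and Nfkbia with 0.49. Over all genes 5.52% passed as higher. Of 24 genes of the duct and epithelium list 3 fell (6.73% of all genes did so). Among them were the tight junction gene Cldn10 by 1.89 and the tetraspanin Tspan8 by 1.36. Without replicate 2 at 8 weeks 6 fell, with the extraction version as a block 0 in limma, and the median of -0.75 turned to 0.34 among arrays of version 8.5.1.1 alone. Its list mean, like that of the acinar list, was lowest in replicate 2 at 8 weeks and highest in replicate 5 at 16 weeks, and the part of that spread was not tested.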
